A study of Rattus norvegicus with 24 samples.

Results

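The imprinted growth genes described here were 10 of the 30667 rows of an RNA sequencing table of rat lung: H19, Igf2, Dlk1, Mest, Peg3, Plagl1, Cdkn1c, Meg3, Grb10 and Igf2r. They were chosen by name as a textbook family, after H19 had been seen to be high in samples A4 and B4, so what rests on the H19 values of those samples, calls included, is a description and supports nothing. All 10 were in the table and all passed the filter on low values, a mean of at least 0.5. The table came from a study of lung cancer induced with smoky coal, and the labels gave all 24 samples the same tissue, lung, and the same protocol, smoky coal. Sample titles ran from A1 to A6, B1 to B6, C1 to C6 and G1 to G6, so there were 6 samples per letter and 4 per number. No meaning for a letter or a number was given in the labels, and no control, genotype, strain, sex, age, dose or time. They did not say that the samples came from separate animals, so each p-value measures only the spread between these samples, which may be technical. The letters were compared as groups, the numbers were compared with the letter in the model, and A4 and B4 were set apart.

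Imprinted genes are transcribed mainly from the copy inherited from 1 parent, because a methylation mark laid down in the egg or the sperm sets which copy is active. Many act on growth before birth: genes read from the father's copy, such as Igf2, Dlk1, Mest, Peg3 and Plagl1, tend to promote it, and genes read from the mother's copy, such as Cdkn1c, Grb10 and Igf2r, tend to limit it. Most are high in the fetus and fall after birth, H19 among the most strongly, with H19 and Dlk1 kept in a few adult cell types, H19 in skeletal muscle and Dlk1 in the adrenal gland and pituitary. The values here are totals of both copies, so nothing about the parental origin of a transcript was measured. They are normalized read counts per gene, not divided by transcript length, so levels are compared between samples and not between genes. Column totals ran from 61717516 to 66007148 after the authors' normalization, and the sequencing depth behind them is unknown. In such bulk tissue, fewer cells of a type and less RNA per cell cannot be told apart.

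H19, a long noncoding RNA made from the mother's copy beside Igf2, was high in 2 of the 24 samples and low in the rest. Its first exon holds the hairpin of miR-675, whose mature products are shown because they are a part of H19 known to act on other transcripts. The table does not measure them. Both sequences are from RefSeq, build GRCr8, minus strand, with the seed, bases 2 to 8, in capitals. They lie at chr1:207161800-207161821 for the 5p product and at chr1:207161766-207161786 for the 3p product.
rno-miR-675-5p: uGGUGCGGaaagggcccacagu
rno-miR-675-3p: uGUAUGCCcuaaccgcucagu

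The normalized count of H19 was 14513.5 in A4 and 2129.5 in B4. Over the other 22 samples it ran from 2.01 in B6 to 152 in A2, with a median of 15.9. The A4 value was 914 times that median and 95.7 times the highest of the 22, and the B4 value was 134 times the median and 14.04 times that highest value. A4 itself had 6.82 times the H19 of B4. The other samples numbered 4 were not high, with 18.9 in C4 and 16.2 in G4. Ranked over all genes by the ratio to the median of the other 22, with 1 added to both, H19 ranked 4 of 30667 genes in A4 and also 4 in B4. Over the table, 436 genes (1.42%) had both A4 and B4 above all the other samples.

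Among the remaining samples the next values of H19 after A2 were 65.6 in G2, 32.2 in G1 and 30.3 in C1. By letter and without A4 and B4, H19 ran from 3.02 to 152 with a median of 17.2 in A (n = 5) and from 2.01 to 25.3 with a median of 12.9 in B (n = 5). It ran from 4.95 to 30.3 with a median of 15.3 in C and from 5.75 to 65.6 with a median of 20.2 in G, both with 6 samples. The ranges of the 4 letters overlapped, and A2 was the 1 sample beyond 100.

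Skeletal muscle markers were above the other samples together with H19 in A4 and B4, and markers of further tissues in A4. Summed over 15 genes of skeletal muscle fibres, the level was 103443 in A4 and 24086 in B4, against 2435 to 4474 in the other 22 samples. 14 of the 15 were above all 22 in A4 and 13 in B4. Acta1, skeletal muscle actin, had 41069 in A4 and 11389 in B4, against 500.2 to 2119 elsewhere. B4 was inside or near the range of the other 22 samples for the summed lists that follow. The summed level of 9 muscle precursor genes was 30591 in A4, 250.2 in B4 and 146 to 231 in the others, and most of the A4 sum was Myh8, the perinatal myosin heavy chain, at 29399. Of the 9 genes, 8 in A4 and 3 in B4 were above all 22. The 3 in B4 were Myh8 at 48.7, Myh3 at 31.0 and Myf6 at 13.4, against at most 8.74, 19.4 and 4.01 in the other 22. For 9 measured genes of oesophageal squamous epithelium the sums were 19345 in A4, 1894 in B4 and 1228 to 1931 in the others. For 8 genes of cardiac muscle they were 64953 in A4, 8761 in B4 and 613 to 25422 in the others. Of the 41 measured genes of these 4 lists, 0 in A4 and 4 in B4 (Myf5, Sprr3, Krtdap and Cnfn) had under 1 normalized count. For 8 fat cell genes the sums were 19249.5 in A4, 9630.3 in B4 and 7099 to 29917 in the others. Lipe, with 5711 to 8716 in the other 22 samples, made up much of these sums. Adipoq had 1404 in A4 and 20.8 in B4, against a median of 14.6 in the other 22. Plin1 had 1210 in A4 and 6.32 in B4, against a median of 7.73. For both genes A4 ranked 2 of the 24 samples. The summed level of 8 lung genes was 1805320 in A4 and 2287010 in B4, against 1718200 to 2172380, so lung markers were present at similar summed levels. In A4, Sftpb (169177) and Sftpa1 (213686), both surfactant proteins, were the lowest of the 24 samples. The part of these tissues in the H19 values was not tested.

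**Figure D1:**
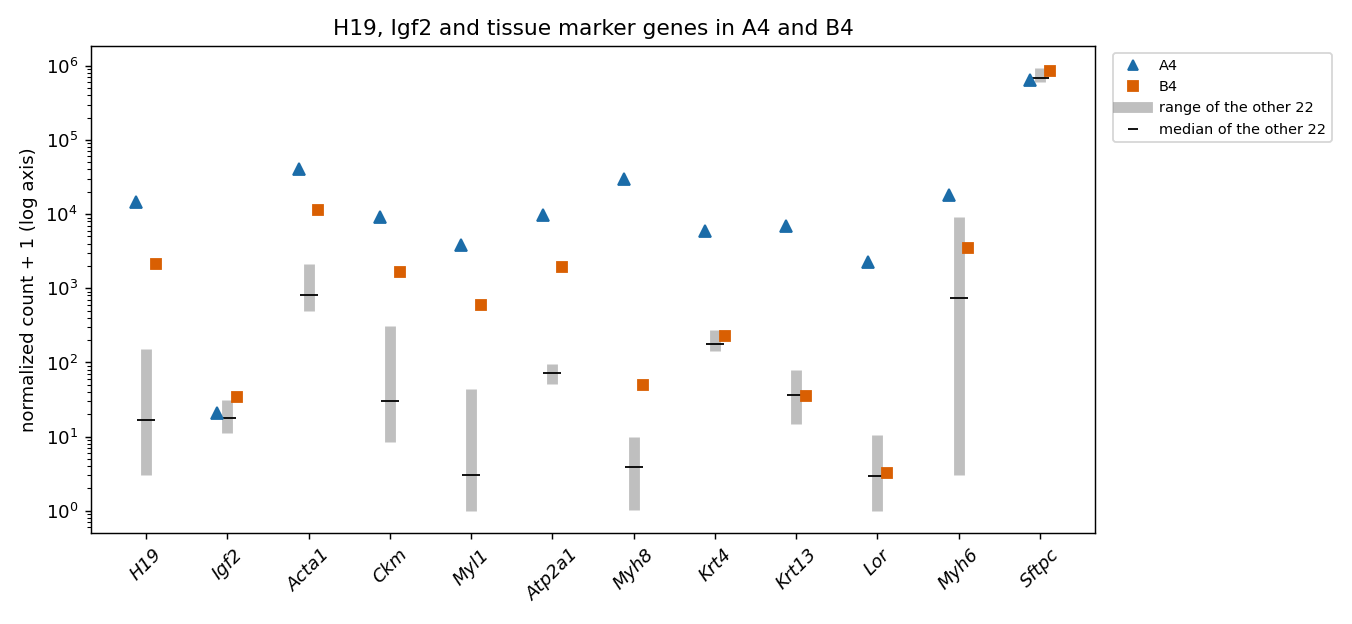
Normalized counts plus 1 on a log axis for H19, Igf2 and marker genes of skeletal muscle (Acta1, Ckm, Myl1, Atp2a1), perinatal muscle (Myh8), squamous epithelium (Krt4, Krt13, Lor), heart (Myh6) and alveolar type 2 cells (Sftpc), each in A4 (triangle) and B4 (square) beside the range (grey bar) and median (dash) of the other 22 samples. H19, the 4 skeletal muscle genes and Myh8 lie above the grey bar in both samples, the 3 squamous genes only in A4, and Igf2 just above it only in B4.

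The genes most like H19 across samples differed with and without A4 and B4. Over all 24 samples the 3 highest Pearson correlations of log2 values, among genes with a mean of at least 50, were those of Acta1 (r = 0.94), Myl1 (r = 0.91) and Tnnt3 (r = 0.88), all genes of the skeletal muscle contractile apparatus. Over the 22 samples they were those of Serpinf1 (r = 0.84), Rhno1 (r = 0.83) and Uqcr10 (r = 0.78). These are descriptions over samples that share 1 normalization, and the 24-sample values rest on A4 and B4. In A2, the sample with the next H19 value, the summed skeletal muscle level was 4474, the highest of the 22, and in G2 it was 3447. C2 and G5 had higher muscle sums than G2, 3503 and 3474, with lower H19, 15.3 and 24.2. A2 also had the highest sums of the fat cell list, 29917, and of the proliferation list, 19146, while G2 had 8146 and 13567.

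Igf2, the fetal insulin-like growth factor that shares enhancers with H19, was low in all 24 samples, from 10.3 in A6 to 32.9 in B4. A4 had 19.7, the 11th highest value, and B4 was 1.099 times the next, 29.97 in G3. RefSeq places no other gene between H19 and Igf2 on rat chromosome 1. Nctc1, a noncoding transcript of the muscle enhancers of the same domain, had 18.4 in A4 and 4.11 in B4, against at most 4.09 in the others. Ins2, the insulin gene on the other side of Igf2, had 8.30 and 9.28, within the range of the others, which reached 16.6. Over the 22 samples H19 and Igf2 had a Pearson r of 0.06 and a Spearman rho of 0.05 (permutation p = 0.801 and 0.819). Apart from H19, the members had 0.67 to 2.10 times the median of the 22 in A4 and B4. The extremes among the full 24 samples were Igf2r, whose lowest value was that of A4 (14413), and Igf2, whose highest was that of B4.

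No member passed the test between letters. In limma's F test over the 4 letters, 0 of the 10 members passed an adjusted p of 0.05 over all 30667 genes, where 0.00652% of genes did, and 0 had an unadjusted p under 0.05, where 3.91% did. In the 6 pairwise comparisons limma called 0 of 10 as well, against 0% of genes in each pair of the letters A, B and C, 0.00652% in G against A and in G against C, and 0.00326% in G against B. With the sample number as a block limma again called 0 members, where 0.0391% of genes passed the F test and 1.27% passed in G against A. Igf2 was the member nearest to a call. It ran from 10.3 to 19.7 with a median of 12.9 in A, from 11.03 to 32.9 with a median of 16.8 in B, from 15.1 to 27.1 with a median of 22.3 in C, and from 14.7 to 29.97 with a median of 22.7 in G. Samples of A averaged 14.2 ± 3.56, those of B 18.6 ± 7.94, those of C 21.4 ± 5.67 and those of G 22.6 ± 6.25 (SD, n = 6). All 4 ranges overlapped. Its log2 difference between G and A was 0.62, with a limma p of 0.0218 and an adjusted p of 0.536. With C against A, that made 2 unadjusted p-values under 0.05 for Igf2 and none for another member, where 8.15% of genes had one in G against A and 2.98% in C against A. In the pairs with no such p among the members the share of genes was 4.03% (G against C), 3.67% (G against B), 3.58% (B against A) and 1.82% (C against B). The member median log2 difference from A was 0.07 in B, 0.08 in C and 0.09 in G, beside -0.01 over all genes in each. The 3 comparisons share the A samples.

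The members varied by sample number. Between numbers lay 60.5% of the sum of squares of their log2 values in the median, beside 37.1% over all genes, and between letters 4.13% beside 9.45%. Grb10 had the highest share between numbers, 76.6%, and Igf2 the lowest, 29.0%. In limma's F test over the 6 numbers, with the letter in the model, 8 of 10 members passed, where 31.5% of all genes did. H19 was 1 of the 8, through the A4 and B4 values that led to the choice, and the other 9 members gave 7 calls. The adjusted p was 0.000392 for Grb10, 0.00153 for Meg3, 0.00192 for Cdkn1c, 0.0036 for Dlk1, 0.00569 for Mest, 0.00723 for Peg3 and 0.035 for Igf2r. Plagl1 (0.0859) and Igf2 (0.306) did not pass. Without A4 and B4 6 of 10 passed, where 26.9% of genes did, and Igf2r (adjusted p = 0.0639) and H19 were lost. Leaving out A1, A6, B1, B6, C1, C4 or C6, or the letter term (adjusted p = 0.0548), also ended the call of Igf2r, and Plagl1 passed without B2, B6, G4 or G5 (limma adjusted p down to 0.041). Which numbers differed was then asked by setting each number against the mean of the other 5, a step added after the F test had been seen.

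**Figure D2:**
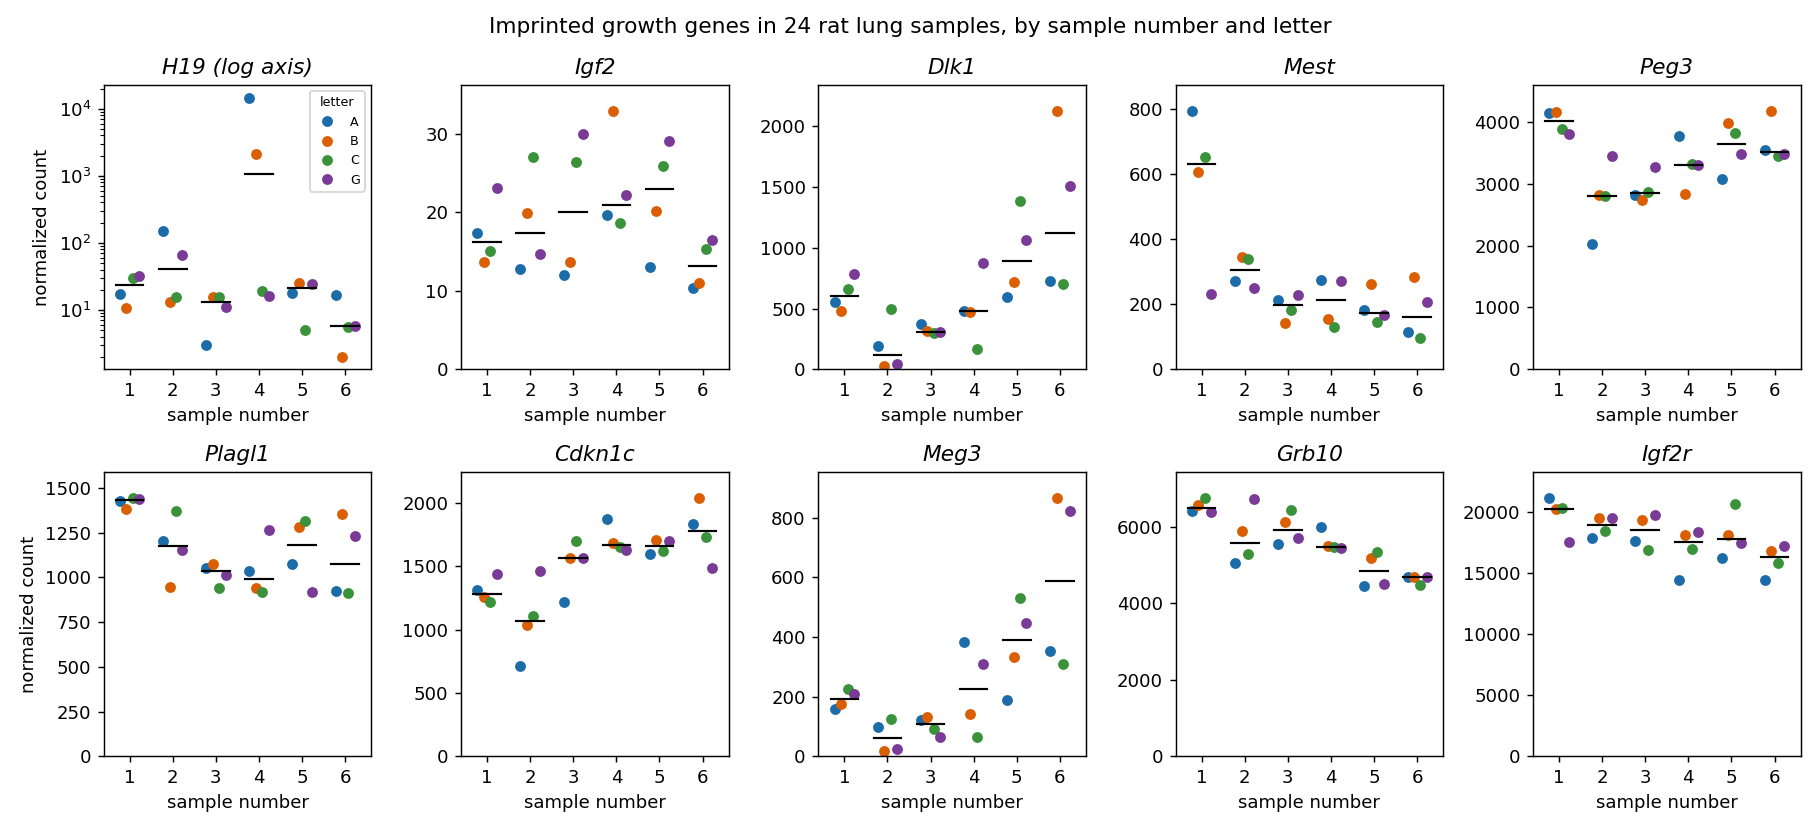
Normalized counts of the 10 genes in 24 samples, by sample number on the horizontal axis, with 1 point per sample in the colour of its letter; the vertical axis starts at 0 except for H19, which is on a log axis. Dlk1 and Meg3 show the same 2 low samples numbered 2 (B2 and G2), Mest has 3 high samples numbered 1, and H19 has 2 high samples numbered 4.

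Cell composition markers moved with the numbers too. Summed over 8 fibroblast genes, the level was 474646 to 603516 in number 1 and 411592 to 530037 in number 2, and 200096 to 315960 in numbers 3 to 6, with no overlap. 6 of these 8 genes passed the number F test, and so did 6 of the 8 lung genes, where 31.5% of all genes passed. The sums are mostly collagens and Fn1, a matrix protein: in number 2 the collagens Col1a1, Col1a2 and Col3a1 and Fn1 were called higher, and Pdgfra and Tcf21, a receptor and a transcription factor of lung fibroblasts, were called lower. In number 1, 5 of the 8 were called higher and 0 lower, where 5.62% of all genes were called higher and 6.25% lower. The sum of 8 proliferation genes was 7765 to 19146 in number 2 and 4873 to 9853 in the other numbers. In number 2, 7 of the 8 were called higher, and over all genes 11.5% were called higher and 10.3% lower. The upper end of the other numbers, 9853, was that of A4, where Aurkb alone gave 8177. The part of these cells in the differences by number below was not tested.

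Dlk1, a membrane protein related to the Notch ligands that holds precursor cells undifferentiated, and Meg3, a noncoding RNA read from the mother's copy of the same domain, had the widest range after H19. RefSeq (build GRCr8) places both on rat chromosome 6, plus strand, with 1 gene between them. The 250 bases before each start are shown because the transcripts moved together from promoters that differ in composition. The Dlk1 window, chr6:134192347-134192596, is 78.0% G or C, and the Meg3 window, chr6:134273806-134274055, is 53.2%. Capitals in Meg3 mark the cyclic AMP response element TGACGTCA, 66 to 59 bases before the start, and overlapping TATA box letters, TATAAA and on the other strand the same letters, 38 to 29 before it.
Dlk1: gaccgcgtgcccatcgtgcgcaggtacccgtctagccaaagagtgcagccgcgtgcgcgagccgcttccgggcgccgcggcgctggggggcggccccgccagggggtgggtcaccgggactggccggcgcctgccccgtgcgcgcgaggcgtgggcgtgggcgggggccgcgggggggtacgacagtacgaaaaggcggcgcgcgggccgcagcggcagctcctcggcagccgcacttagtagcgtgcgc
Meg3: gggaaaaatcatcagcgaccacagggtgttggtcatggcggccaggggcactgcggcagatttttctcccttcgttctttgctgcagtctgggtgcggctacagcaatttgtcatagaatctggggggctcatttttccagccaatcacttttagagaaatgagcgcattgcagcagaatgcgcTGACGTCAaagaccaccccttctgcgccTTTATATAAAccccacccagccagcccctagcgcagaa

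The motifs were chosen after the sequences had been read, and each was searched on both strands. TGACGTCA occurs in 1.59% of 33469 RefSeq promoter windows of this length and, among the 9 windows of 8 members, in Meg3 and Peg3. TATAAA occurs in 12.9% of all windows and among the members in Meg3. GGGGCCCC, within the GC-rich letters bound by PLAGL1, occurs in 0.753% of all windows and among the members in Peg3. The Dlk1 window holds none of the 3. A match describes the letters and is not a binding site shown here.

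Dlk1 had 196, 25.8, 499.8 and 43.2 normalized counts in A2, B2, C2 and G2, a mean of 191 ± 219 (SD, n = 4). It had 729, 2128, 703 and 1512 in A6, B6, C6 and G6, a mean of 1268 ± 685. B2 and G2 were the lowest of all 24 samples and B6 and G6 the highest, while A2 and C2 overlapped other numbers. Means of the remaining numbers were 619 ± 132 for number 1, 326 ± 34.3 for number 3, 501 ± 288 for number 4 and 941 ± 356 for number 5. Number 2 fell by 2.56 on the log2 scale against the other numbers (SE 0.50, limma adjusted p = 0.000887), where 10.3% of all genes were called lower. Number 2 had 4 members lower (Dlk1, Meg3, Cdkn1c and Peg3) and 0 higher, where 11.5% of genes were called higher. That difference was -1.89 without B2 and -3.41 without C2, and passed in both. Number 6 was 1.58 above the others and missed the threshold (limma adjusted p = 0.0566).

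Meg3 had 99.4, 17.9, 124 and 25.4 in the samples numbered 2, in the order of the letters, and 351, 867, 309.8 and 822 in those numbered 6. Again B2 and G2 were the lowest and B6 and G6 the highest of the 24, and A2, C2, A6 and C6 overlapped other numbers. The means were 191 ± 30.2, 66.8 ± 53.2, 102 ± 29.6, 225 ± 146, 374 ± 148 and 587 ± 298 for numbers 1 to 6 (SD, n = 4). Number 2 was lower by a log2 difference of -2.20 (SE 0.45, limma adjusted p = 0.0013). Number 6 was higher by 1.88 (SE 0.45, limma adjusted p = 0.0135), where 4.11% of genes were called higher, and lost the call without B6 (0.121) or G6 (0.0527).

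The levels of the 2 transcripts varied together from sample to sample. Over the 22 samples their log2 values had a Pearson r of 0.96 and a Spearman rho of 0.97, both with a permutation p of 1e-05, the smallest that the permutations can give, and 0.00045 after adjustment over the 45 pairs of members. Without B2 and G2, the samples farthest from the Dlk1 median, r was 0.95, and for deviations from the number means it was 0.94. The ratio of Meg3 to Dlk1 ran from 0.209 in G3 to 0.692 in B2 with a median of 0.378, and was 0.794 in A4, the highest of the 24. 2 other genes of the domain had no such relation that passed. Rian, a noncoding RNA downstream of Meg3, ran from 6.07 to 34.8 and had an r of -0.21 with Meg3, and Dio3, a thyroid hormone deiodinase, had an r of -0.08 with Dlk1 (22 samples, adjusted permutation p = 0.533 and 0.837). Rtl1 and Mirg had mean values of 5.55 and 1.80, too low to relate. Summed over 6 measured adrenal and pituitary genes, the level was 289 to 420.2 in number 2 and 403 to 487 in number 6. This list gave 1 call of 6 in the number F test, where 31.5% of all genes passed. The call was Star, the cholesterol transporter of steroid synthesis (limma adjusted p = 0.00178 in that F test). Star was 162 ± 51.7 in number 2 and highest in number 3 at 297 ± 25.8 (SD, n = 4).

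**Figure D3:**
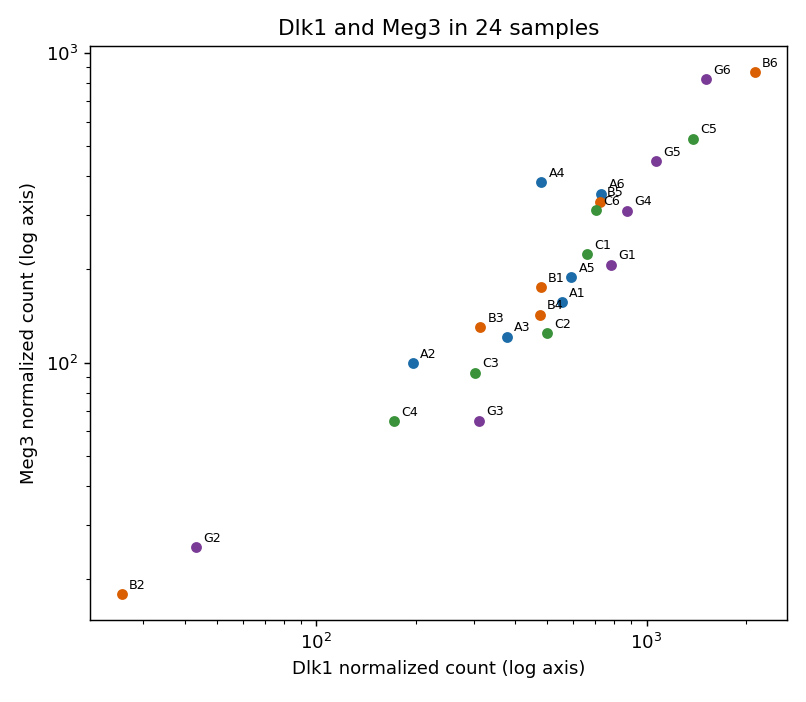
Meg3 against Dlk1 normalized counts, both on log axes, 1 point per sample in 24 samples. The points lie along 1 line from B2 and G2 at the lower left to B6 and G6 at the upper right (r = 0.96 over the 22 samples other than A4 and B4).

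Mest, a membrane-bound hydrolase of mesoderm read from the father's copy, was higher in the samples numbered 1. They had 794, 608, 654 and 231 in A1, B1, C1 and G1, a mean of 572 ± 240.5 (SD, n = 4). The other numbers averaged 301 ± 47.5, 192 ± 38.4, 208 ± 77.4, 189 ± 51.1 and 175 ± 86.5 for numbers 2 to 6. A1, B1 and C1 lay above all other samples, whose highest was 344 in B2, and G1 lay among them. The log2 difference of number 1 was 1.37 (SE 0.27, limma adjusted p = 0.00205), where 5.62% of genes were called higher. Number 1 had 4 members higher (Mest, Grb10, Plagl1 and Peg3) and 0 lower, where 6.25% of genes were called lower. The call of Mest passed in each of the 32 alternatives. Copg2, which overlaps the end of Mest in rodents, had an r of 0.38 with it (22 samples, adjusted permutation p = 0.244).

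Plagl1, a zinc finger transcription factor that activates other imprinted genes, had 1429, 1382, 1447 and 1437 in the samples numbered 1, a mean of 1424 ± 28.6 (SD, n = 4). All 4 lay above the other 20 samples, of which C2 was the highest at 1373, and the lowest was 914 in C6. The log2 difference was 0.39 (SE 0.11, limma adjusted p = 0.0229). It lost the call when any 1 of A1, B1, C1 or G1 was left out, with an adjusted p up to 0.0984. Means of numbers 2 to 6 were 1168 ± 176, 1022 ± 58.8, 1041 ± 159.9, 1149 ± 188 and 1106 ± 223.

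Peg3, a large zinc finger protein read from the father's copy, was higher in number 1 and lower in number 2. It had 4132, 4158, 3884 and 3798 in number 1, a mean of 3993 ± 179.5, and 2021, 2819, 2794 and 3437 in number 2, a mean of 2768 ± 580.2 (SD, n = 4). Numbers 3 to 6 averaged 2922 ± 233, 3301 ± 381, 3584 ± 402 and 3656 ± 347. Both groups overlapped other numbers: B6, at 4173, was the highest of the 24 and A2 the lowest. The log2 difference was 0.32 for number 1 (SE 0.09, limma adjusted p = 0.0276) and -0.35 for number 2 (SE 0.09, limma adjusted p = 0.00872). The call in number 1 was lost without A1, B1 or C1 (adjusted p up to 0.164) and that in number 2 without A2 (0.138). Of its imprinted neighbours, Zim1 passed the number F test (limma adjusted p = 0.00259) and Usp29 did not (0.882).

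Cdkn1c, the cyclin-dependent kinase inhibitor p57 read from the mother's copy, was lower in number 2. It had 713, 1033, 1105 and 1461 in A2, B2, C2 and G2, a mean of 1078 ± 307 (SD, n = 4). A2, B2 and C2 were the 3 lowest of the 24 samples and G2 lay among the others. Means of the other numbers were 1307 ± 96.8 for number 1 and 1513 ± 208, 1709 ± 112, 1656 ± 54.9 and 1773 ± 231 for numbers 3 to 6. The log2 difference of number 2 was -0.59 (SE 0.11, limma adjusted p = 0.00052), and it passed in each of the 32 alternatives. In A2, which had the lowest Cdkn1c, the sum of the proliferation genes was 19146, the highest of the 24. In B2, with the next lowest Cdkn1c, it was 7765, inside the range of the other numbers, and it was 13180.3 in C2 and 13567 in G2. That range ended at 9853 in A4, of which Aurkb gave 8177, and Aurkb did not pass the number F test (limma adjusted p = 0.0585). For Mki67, Top2a and Cdk1 the lowest values in number 2 were 1103, 1039 and 528, against 559, 369 and 208 in A4. Slc22a18, a transporter, had the highest r with Cdkn1c among the neighbours of its domain, 0.55 (22 samples, adjusted permutation p = 0.122). For deviations from the number means that r was 0.37. Kcnq1, another neighbour, had an r of 0.27 with Cdkn1c over the 22 samples and 0.67 for these deviations, which were not tested.

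Grb10, an adaptor that dampens signalling from the insulin and insulin-like growth factor receptors, was higher in number 1 and lower in number 6. It had 6401, 6574, 6760.5 and 6376 in number 1, a mean of 6528 ± 178, and 4686, 4687, 4467 and 4686 in number 6, a mean of 4632 ± 109.8 (SD, n = 4). The 2 groups did not overlap each other, while G2 (6726) and C3 (6424) reached the range of number 1, and A5 (4442) and G5 (4503) that of number 6. Numbers 2 to 5 averaged 5738 ± 747, 5950 ± 403, 5603 ± 261 and 4872 ± 466. The log2 difference was 0.29 for number 1 (SE 0.06, limma adjusted p = 0.0022) and -0.30 for number 6 (SE 0.06, limma adjusted p = 0.0037), where 4.02% of genes were called lower. Both calls passed in each of the 32 alternatives.

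Igf2r, the receptor that clears IGF2 by carrying it to the lysosome, had 14459, 16781, 15834 and 17239 in number 6, a mean of 16078 ± 1228 (SD, n = 4), and 19840.3 ± 1558 in number 1. The samples numbered 6 overlapped other numbers, which ran down to 14413 in A4. The log2 difference of number 6 was -0.19 (SE 0.06, limma adjusted p = 0.0461), and in 16 of 32 alternatives, quantile normalization among them (0.0839), it did not pass. Numbers 3 and 5 gave 0 members called by limma, where 2.89% and 0.88% of genes were called higher and 2.09% and 1.09% lower. Number 4 gave 1, H19, where 2.72% were called higher and 2.02% lower. Igf2 averaged 13.3 ± 3.08 in number 6 and 17.3 to 23.4 in the others, without a call.

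**Figure D4:**
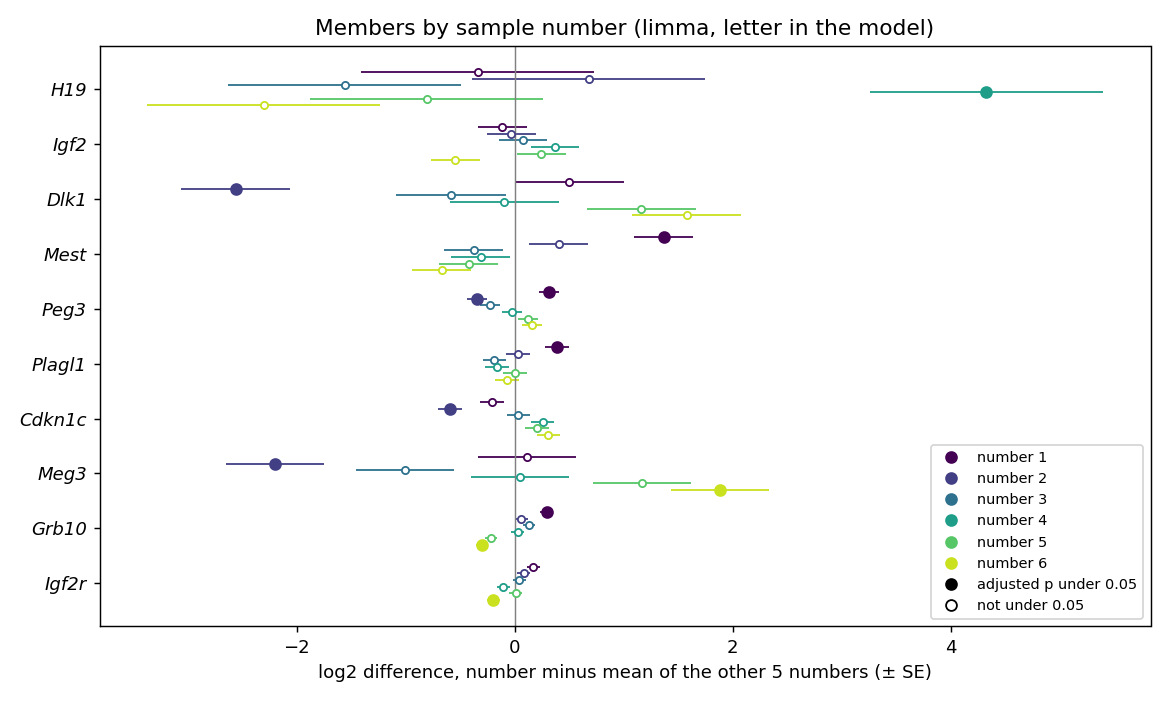
Log2 difference of each sample number from the mean of the other 5 numbers, with the letter in limma's model, for the 10 genes; bars are standard errors and filled points have an adjusted p under 0.05 over all genes. Mest is the highest filled point of number 1, Dlk1 and Meg3 the lowest of number 2, and H19 in number 4 rests on A4 and B4.

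Of the 45 pairs of members, 28 had a positive and 17 a negative r over the 22 samples. Besides Dlk1 with Meg3, 3 pairs had an adjusted permutation p under 0.05 for both r and rho. Mest and Plagl1 had an r of 0.69 and a rho of 0.72 (permutation p = 0.00026 and 0.00022, adjusted 0.00585 and 0.00495), and r was 0.60 without A1 and C1. Grb10 and Igf2r had an r of 0.68 and a rho of 0.66 (permutation p = 0.00044 and 0.00092, adjusted 0.0066 and 0.0138), and r was 0.64 without C1 and G2. Mest and Igf2r had an r of 0.66 and a rho of 0.60 (permutation p = 0.00081 and 0.00373, adjusted 0.00911 and 0.0303), and r was 0.54 without A1 and C1. For deviations from the number means these 3 values of r were 0.47, 0.41 and 0.47, so these 3 relations, picked by the pooled test, were weaker within numbers. Some other pairs were stronger there. The r of Peg3 and Grb10 went from 0.11 to 0.67, that of Dlk1 and Plagl1 from 0.37 to 0.72, and that of Cdkn1c and Grb10 from -0.28 to 0.61. The values within numbers were not tested. The permutations ignored the numbers, by which the members differed, so the permutation p-values may be too small. Of 23 imprinted neighbours of the members, 18 were high enough to relate, and 0 had an adjusted permutation p under 0.05 for both measures.

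The genes most like each member over the 22 samples were named by the highest Pearson r of log2 values among genes with a mean of at least 50, as a description. For Dlk1 they were Ghr, the growth hormone receptor (r = 0.86), Slco1a5 (0.85) and Crim1 (0.84), and for Meg3 Slco1a5 (0.87), Sh3rf2 (0.86) and Prodh (0.86). For Mest they were Cxcl14, a chemokine (r = 0.87), Tgfb2, a transforming growth factor (0.86), and Smo, the signal transducer of the hedgehog pathway (0.84). Peg3 was most like Acvr2a, an activin receptor (r = 0.93), Abi2 (0.92) and Ogn, a matrix proteoglycan (0.90). Cdkn1c was most like Cracr2b (r = 0.94), Cdc14a (0.94) and Zmat1 (0.92), and Grb10 most like Fndc3b (0.91), Mical2 (0.90) and Lama5, a laminin chain (0.87). The highest r was lower for Igf2r (Wdr59, 0.84), Plagl1 (Epb41l3, 0.82) and Igf2 (Zbtb2, 0.69).

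Of 57 other imprinted genes in the table, 0 passed limma's F test over letters and 2 had an unadjusted p under 0.05, where 0.00652% and 3.91% of all genes did. Over numbers 18 (31.6%) passed, beside the 31.5% of all genes. The 4 with the lowest p, Peg13, Ppp1r9a, Osbpl5 and Zrsr1, all had their lowest mean in number 2. Peg13, a noncoding RNA, had 985 ± 219 in number 2 and 1769.6 ± 198 in number 6, its lowest and highest means (SD, n = 4). Its limma adjusted p in the F test over the 6 numbers was 1.68e-05. Against the other numbers, number 2 had 8 of the 57 lower and 2 higher, and number 1 had 7 higher and 2 lower. Over all genes, 10.3% were lower and 11.5% higher in number 2, and 5.62% higher and 6.25% lower in number 1.

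Of 19 genes of the insulin-like growth factor pathway, 11 (57.9%) passed over numbers, where 31.5% of all genes did. Over letters 0 passed and 0 had an unadjusted p under 0.05, where 0.00652% and 3.91% of all genes did. Igfbp3, a binding protein that carries the growth factors, had 1673 ± 163 in number 2 and 3478 ± 214 in number 5 (SD, n = 4, limma adjusted p = 4.18e-05). Pappa, a protease that cuts binding proteins, had 695 ± 49.8 in number 2 and 346 ± 69.8 in number 6 (limma adjusted p = 4.75e-05). Igf1, the growth factor that predominates after birth, had 9954 ± 1478 in number 3 and 5623 ± 533 in number 6 (limma adjusted p = 0.000162). Igfbp3, Pappa and Igf1 were named for a low p over numbers, and are given at the numbers with their highest and lowest means. Their ranges there did not overlap, which that choice favours, so it is a description and supports nothing. Each adjusted p above is that of the F test over the 6 numbers, not of the 2 numbers named.

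Of 11 genes that set or keep methylation marks at imprinted regions, 5 (45.5%) passed over numbers, where 31.5% of all genes did. Over letters 0 passed and again 0 had an unadjusted p under 0.05, where 0.00652% and 3.91% of all genes did. Dnmt3a, the methyltransferase that sets most marks in germ cells, had 4935 ± 259 in number 1 and 3295 ± 317 in number 6 (SD, n = 4, limma adjusted p = 0.000173). Uhrf1, which brings the maintenance methyltransferase to replicating DNA, had 761 ± 604 in number 2, from 312 to 1599, and 173 ± 20.6 in number 4 (limma adjusted p = 0.00198). Zfp57, the zinc finger protein that protects imprints, had 786 ± 26.2 in number 1 and 622 ± 50.2 in number 2 (limma adjusted p = 0.0253). For Dnmt3a, Uhrf1 and Zfp57 the numbers named are those with the highest and lowest means. Each adjusted p is that of the F test over the 6 numbers, not of the 2 numbers named.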

How the data were processed

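RNA sequencing of lung from 24 rat samples was analysed from 1 deposited table. The authors deposited a signal per gene, normalized read counts, without raw counts. The submitters' processing notes name STAR and the genome build GRCm38, a mouse build, with no role or version, and how that bears on rat levels was not tested. Of 30667 row names, 16143 (52.6%) matched rat symbols in RefSeq GRCr8, all 10 members among them. Whole reads could not be recovered, so depth is unknown and no count model was used.

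limma 3.58.1 (R 4.3.3) with a mean-variance trend was fitted to log2(value + 1) over all genes with a mean of at least 0.5, which all 30667 passed, with Benjamini-Hochberg adjustment over all genes and a threshold of 0.05. Log2 differences on this scale understate changes of low genes. Letters were fitted as 4 means and numbers with the letter added. Relations between members used 100000 permutations over 22 samples (numpy and scipy, in Python). Samples were permuted without regard to letter or number, so these p-values may be too small where numbers differ. The fits were tested on simulated data.

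Whether equal numbers pair samples was judged by correlating their deviations from letter means over 21922 genes. All 6 exceeded 0.1 in B against A (0.169 to 0.590) and C against B (0.127 to 0.596), and at least 1 did not in each other pair, a pairing seen in the data and not in the labels.

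Members and lists were chosen with earlier results of these data known. Genes named are the members, the 3 most like each, up to 4 of each list with the lowest p among those that passed, and the highest of each list in A4 or B4. Imprinted neighbours of the members and some plotted markers were named outside it, after their values were seen. Alternatives were pseudocount 0.1, a mean of at least 10, quantile and 75th percentile scaling, sample quality weights, the block, no letter term for the numbers, and samples left out.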

Additional observations from a re-analysis of the deposited data

Results flagged for a closer look

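The 10 genes in 4 letters gave 40 groups of 6 samples, in which Dixon's test looked for 1 sample far from the other 5. H19 in A4, at 14513.5 with the next A sample at 152, and H19 in B4, at 2129.5 with the next B sample at 25.3, are the values that led to the choice of the genes, so their distance is a description. In the remaining 38 groups 3 samples were picked out, where chance picks out about 1 in 20 groups, or 1.9, if values are normally distributed. The test was run on counts without a log, so that rate may not hold here. Dlk1 in B6 was 2128 with the next at 722, and Meg3 in the same sample was 867 with the next at 331. Dlk1 and Meg3 varied together, so their picks in B6 are not independent. Mest in A1 was 794 with the next A sample at 276.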

How the results depend on the processing

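Each count of members called was recomputed under 32 alternatives. Over letters it was 0 under all of them, and with the replicate block, the sample number as a term, it was 0 of 10 in the F test and in each pair, where the lowest adjusted p of limma was 0.208 (Igf2, G against A). The block changed no member's call. The F test over numbers gave 6 to 9 of 10 when 1 sample was left out. Leaving out 1 sample gave 2 to 5 members in number 1 (2 without A1, B1 or C1), 0 to 1 in number 3 (1 without A2), 0 to 1 in number 4 (0 without A4 or B4), 0 to 1 in number 5 (1 without A2, C2 or G2) and 1 to 4 in number 6 (1 without B6). Number 4 gave 0 without A4 and B4 together, number 5 gave 1 with a mean of at least 10 and 1 with sample quality weights, and number 6 gave 5 with these weights. Number 1, with 4 members, gave 6 with these weights and 5 with 75th percentile scaling, and the F test over numbers gave 7 with no letter term. None of the 12 calls of single members by number changed sign. Of these, Mest, Dlk1, Cdkn1c, both calls of Grb10 and that of Meg3 in number 2 passed in all 32. The causes of the other changes were not tested. Dropping the filter on low values tested the same genes, and DESeq2 was not run because there are no raw counts. The depth is unknown, so values near 0, as for H19 and Igf2, have no counting interval.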

Other observations

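Within letters, 4 of the 10 members had their lowest spread in G, where 30.8% of all genes did. The SD of the log2 value was 0.24 in G and 0.77 to 1.02 in the other letters for Mest, and 0.08 against 0.20 to 0.37 for Peg3. It was 0.09 against 0.28 to 0.52 for Cdkn1c, and 0.08 against 0.10 to 0.21 for Igf2r. Mest had 231 and 249.5 in G1 and G2, beside 167 to 272 over the 6 G samples. Peg3 had 3798 and 3437 in G1 and G2, beside 3262 to 3798, and Cdkn1c had 1442 and 1461, beside 1442 to 1698. How near G1 and G2 lay to the other G samples was not compared with the other letters. For Dlk1 and Meg3 the spread in G, 1.87 and 1.84, was near that in B, 2.10 and 1.83, and A had the lowest, 0.67 and 0.79. These spreads were not tested.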
